A study of Mus musculus with 6 samples.

Results

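Pecam1, Cdh5, Kdr, Flt1, Tek, Tie1, Emcn, Vwf, Erg and Sox17 are genes by which endothelial cells are recognised, and they are 10 of the 21853 protein-coding genes of the annotation (GENCODE M21, mm10). Endothelium lines every blood vessel, and its form inside the heart chambers is the endocardium. Its cells are held together by adhesion proteins, grow towards vascular endothelial growth factor (VEGF), mature under angiopoietins, and keep their identity through transcription factors of the ETS and SOX families. In the heart of a newborn mouse they lie next to cardiomyocytes in a dense capillary bed that is still expanding. The 10 genes were named with earlier results of these libraries known, and their regions were selected on the presence of a peak in at least 1 of 6 lists within the gene body or 10 kb to either side. Peak number and peak strength are therefore given as a description, without a test.

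Open chromatin was measured by Omni-ATAC-seq, in which a transposase inserts sequencing adapters into accessible DNA, on 50000 nuclei per library from whole mouse hearts at postnatal day 1. Nuclei were spun through a 2.2 M sucrose cushion, and each of 3 groups had 2 independent biological replicates. The Input nuclei came from wild-type hearts and were not pulled down. The PCM1 nuclei came from wild-type hearts and were enriched on magnetic beads with an antibody to PCM1, a centriolar satellite protein that gathers at the nuclear envelope of cardiomyocytes, and the Myc nuclei came from Nkx2-5 Cre/+; R26RSun1-Myc-Egfp/+ hearts and were enriched with a Myc antibody. In the Myc hearts, Cre under the control of Nkx2-5 switches on a Myc-tagged nuclear envelope protein, Sun1, in cells with a history of Nkx2-5 expression. That lineage is known to hold cardiomyocytes together with a part of the endocardium, endothelium and smooth muscle, so it is not a pure cell type. The study chose the cushion to keep cardiomyocyte nuclei and to leave most other nuclei, endothelial ones included, behind before either pull-down. How many endothelial nuclei remained in each library was not measured here. Genotype and antibody change together between Myc and PCM1, and their shares in a difference between these groups cannot be told apart. In bulk nuclei, fewer endothelial nuclei and less accessibility per nucleus cannot be told apart either.

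The lists held 131500 and 75336 (Input), 107216 and 108513 (Myc), and 83139 and 81487 (PCM1) peaks, where pairs of values here and throughout give replicate 1 and then replicate 2 of a group. Depth differed within Input: the genome-wide background pileup, which scales with the number of reads, was 3.96 and 1.02 (Input), 1.44 and 1.44 (Myc), and 0.977 and 0.903 (PCM1). Input 1 was thus 4.38 times as deep as the shallowest library, PCM1 2. At that background the smallest pileup called as a peak was 11 and 6 (Input), 6 and 6 (Myc), and 5 and 5 (PCM1). A region without a peak was not detectable at that depth, which does not make it closed. The strength of a peak is given as a rank percentile, its place among the peaks of its own library by −log10 q, with 100 for the strongest peak and 0 for no peak. Because longer lists reach weaker sites, values are also given at equal peak number, which keeps from every list its 75336 best-ranked peaks, as many as Input 2 had.

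Each of the 10 genes had at least 1 peak in its window in each of the 6 libraries. Peaks were common in such windows, and at equal number 18015 of the 21853 protein-coding genes counted as having one. With the full lists the median protein-coding gene had 4 and 2 (Input), 3 and 3 (Myc), and 2 and 2 (PCM1) peaks. Summed over the 10 windows, which span 1169 kb, the peaks numbered 139 and 78 (Input), 121 and 101 (Myc), and 87 and 83 (PCM1). At equal peak number they numbered 77 and 78 (Input), 81 and 81 (Myc), and 78 and 75 (PCM1). Myc held the most peaks over these genes at equal number, but by a narrow margin. Its mean exceeded that of PCM1 by 4.5 peaks, against 26 peaks with the full lists, where the replicate spread of the difference was 14.4 and its value was 16 without Myc 1 and 36 without Myc 2. The density at equal number was 6.59 and 6.67 (Input), 6.93 and 6.93 (Myc), and 6.67 and 6.42 (PCM1), in peaks per 100 kb. In the windows of protein-coding genes as a whole it lay between 4.76 and 4.93, so that the endothelial windows held more peaks per length in each library. Input stood on both sides of the other groups. With the full lists its mean was 108.5 peaks, against 78 without Input 1 and 139 without Input 2, and its difference from PCM1 ran from −7 to 54 and that from Myc from −33 to 28 with the library left out.

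The summed peak number of cardiomyocyte markers also differed between the same groups. The 10 cardiomyocyte markers examined beside the endothelial genes (Myh6, Myh7, Tnnt2, Tnni3, Actc1, Ttn, Ryr2, Pln, Nppa and Myl2) had 88 and 106 (Input), 66 and 63 (Myc), and 117 and 111 (PCM1) peaks at equal number. Ryr2, the calcium release channel of the sarcoplasmic reticulum, held the most of them in 4 of 6 libraries, at 26 and 34 (Input), 12 and 10 (Myc), and 39 and 37 (PCM1). Ryr2 and Ttn made up most of the difference between Myc and PCM1, Ttn with 17 and 22 (Input), 13 and 12 (Myc), and 27 and 31 (PCM1). At equal number 4 of the 10 had more peaks in both PCM1 libraries than in either Myc library, against 11.3% of protein-coding genes. These were Myh6, Myh7, Ttn and Ryr2. Myh6 and Myh7 had the same strongest percentile, 98.2 in Input 1 and 99.2 in PCM1 1, so their windows overlap. Peaks in both windows were summed for each gene, and these genes are not independent in the counts. Tnni3 and Nppa, 2 of the 10, had more in both Myc libraries, against 10.2%. No marker of the 10 was without a peak in any library. As a sum, cardiomyocyte peaks were fewest in Myc, where endothelial peaks were most frequent. The part of this difference in the endothelial values was not tested.

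**Figure D1:**
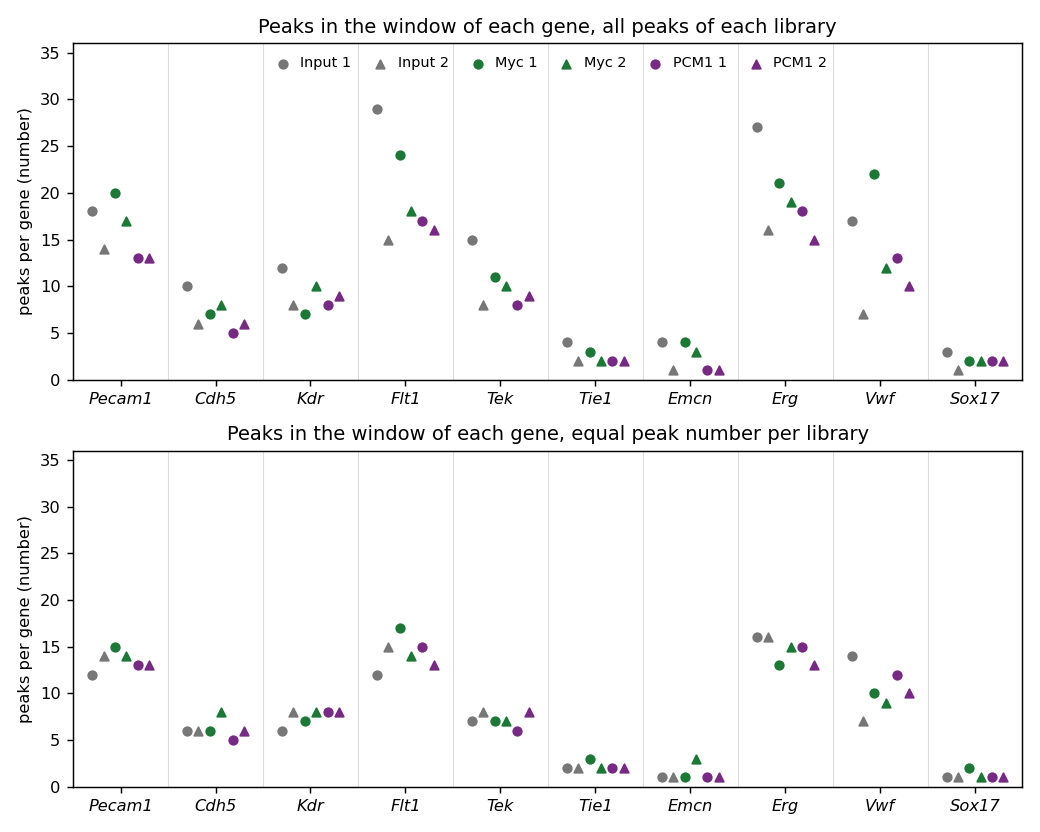
Number of peaks in the window of each gene (vertical axis) for the 10 endothelial genes (horizontal axis), with all peaks of each library above and at equal peak number below; circles are replicate 1 and triangles replicate 2 of Input (grey), Myc (green) and PCM1 (purple). Flt1 spans 15 to 29 peaks with all peaks and 12 to 17 at equal peak number, while Sox17, Emcn and Tie1 stay at 4 or fewer in both panels.

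With the full lists, 6 of the 10 genes (Pecam1, Cdh5, Flt1, Tek, Emcn and Erg) had more peaks in both Myc libraries than in either PCM1 library, and none had more in PCM1. Among the protein-coding genes compared, 27.8% had more peaks in Myc and 2.79% more in PCM1. At equal number the order held for Pecam1 alone among the 10, against 10.2% of protein-coding genes, and for none in the direction of PCM1, against 11.3%. Erg was the 1 gene with more peaks in both Input libraries than in either PCM1 library at equal number, where the share of protein-coding genes was 7.56%. Once the lists were equally long, the peak numbers of Myc and PCM1 overlapped or met for the other 9 genes.

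The strength of each gene's strongest peak gave another order. At equal peak number the mean rank percentile over the 10 genes was 72.1 and 69.8 (Input), 76.3 and 78.1 (Myc), and 74.5 and 77.2 (PCM1). Emcn, Vwf and Sox17, 3 of the 10, ranked higher in both Myc libraries than in either PCM1 library, where 43.3% of protein-coding genes did. Pecam1, Kdr, Tie1 and Erg, 4 of the 10, ranked higher in both PCM1 libraries, where 22.4% did. Emcn and Sox17 had the weakest of these peaks and Pecam1 the strongest. As a relative summit height, the strongest peaks of the 10 genes averaged 2.1 and 2.04 (Input), 1.90 and 1.96 (Myc), and 2.24 and 2.23 (PCM1). This height is the summit pileup divided by the library's median pileup over the 48861 regions present in all 6 libraries. By height PCM1 lay above Myc, whereas by rank percentile with the full lists Myc lay above PCM1, at 84.0 and 69.8 (Input), 83.4 and 84.8 (Myc), and 76.9 and 78.9 (PCM1). The order by height rests on Pecam1, whose strongest site had a mean height of 4.34 in Myc and 7.71 in PCM1.

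**Figure D2:**
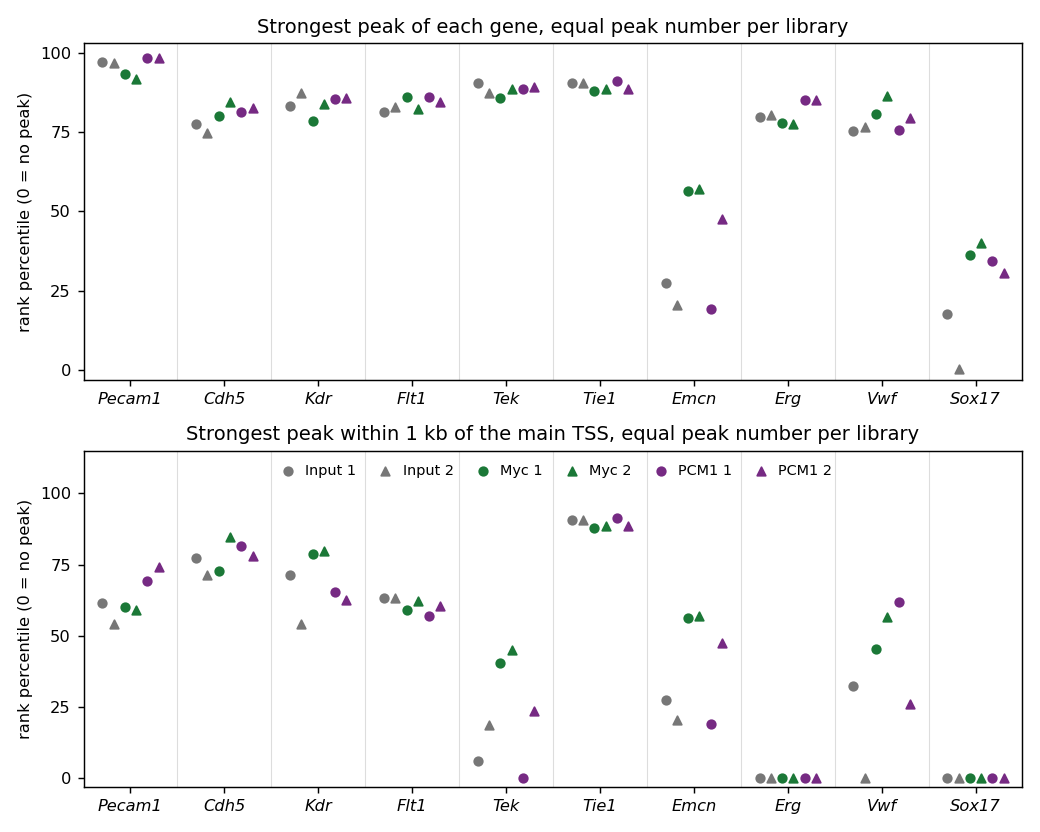
Rank percentile (vertical axis, 0 for no peak) of the strongest peak in each gene's window (upper panel) and of the strongest peak within 1 kb of its main transcription start site (lower panel), at equal peak number; circles are replicate 1 and triangles replicate 2 of Input (grey), Myc (green) and PCM1 (purple). In the upper panel 8 genes lie above 74 in each library while Emcn and Sox17 lie lower, and in the lower panel Erg and Sox17 are at 0 in each library.

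Percentiles are those with all peaks unless equal number is named, and at equal number weak sites drop out of the longer lists. The sites described below as called in Input alone, in Tek and Kdr, were then in Input 2 alone. The Erg site called in Input and Myc 1 was in Input 2 alone as well, and the site of the Sox17 coding exon in Myc 1 alone. The Cdh5 site in intron 2 was missing from Myc 1, that of Kdr intron 27 from Myc 2 and the Tek promoter from PCM1 1. Of the sites with the widest gap of Myc over PCM1, Input 1 lost the upstream Pecam1 site and the shorter-transcript start of Cdh5. It also lost those in Flt1 intron 14, Tek intron 8, Emcn intron 6 and Vwf intron 12. Myc 1 lost the site in Vwf intron 18. For each gene, the regions described below are the strongest on average, the one at the main promoter, and those with the widest gap of Myc over PCM1, of Input over PCM1 and of PCM1 over Myc, where there is one. Further regions were chosen after their values were seen, so they show where a gene varies and not how often it does. They are the upstream and downstream sites of Cdh5, introns 1 and 3 of Kdr, the sites of Tek in intron 1 nearest to its promoter and in intron 4, and the downstream site of Tie1. The other such regions are introns 6 and 15 and the downstream site of Vwf, the alternative promoters of Erg, its intron 4, the other sites in its intron 2 and the first site described in its intron 7, and the promoter of Sox17.

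Pecam1 and Cdh5 encode adhesion proteins of the endothelial junction. Pecam1, also called CD31, is an immunoglobulin-type receptor that binds its own kind on the neighbouring cell, and Cdh5 encodes VE-cadherin, the cadherin of the adherens junction between endothelial cells. Pecam1 (chr11:106654217-106750628, minus strand) had 18 and 14 (Input), 20 and 17 (Myc), and 13 and 13 (PCM1) peaks, and 12 and 14 (Input), 15 and 14 (Myc), and 13 and 13 (PCM1) at equal number. It held the strongest site of the whole set, in intron 13, 37.2 kb downstream of the main transcription start site (TSS), at chr11:106677682-106678404. Its rank percentile was 98.3 and 96.8 (Input), 95.4 and 94.3 (Myc), and 98.4 and 98.5 (PCM1). Summit pileups there were 785 and 198 (Input), 213 and 190 (Myc), and 229 and 226 (PCM1), which as relative heights are 6.95 and 6.60 (Input), 4.63 and 4.04 (Myc), and 7.63 and 7.79 (PCM1). Both PCM1 libraries stood above both Myc libraries, by rank as by height.

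The main promoter of Pecam1 was weaker than this intronic site. The peak there (chr11:106715066-106715710) ranked at 61.7 and 54.3 (Input), 60.0 and 58.9 (Myc), and 69.2 and 74.2 (PCM1) at equal number, again with PCM1 above Myc. Upstream of that promoter, an intron of a longer transcript held a peak at chr11:106722715-106723341, ranked at 45.3 and 52.8 (Input), 38.9 and 26.8 (Myc), and 65.3 and 63.2 (PCM1) at equal number, the widest gap of PCM1 over Myc in the gene. Other sites of the gene ran the opposite way. At chr11:106742485-106742811, farther upstream and nearer to the TSS of Milr1, the percentile with all peaks was 39.2 and 8.96 (Input), 62.8 and 46.2 (Myc), and no peak in PCM1. Past the 3′ end of the gene, chr11:106648171-106648771 ranked at 53.6 and 10.8 (Input), 75.7 and 37.6 (Myc), and no peak in PCM1, with a TSS of Tex2 as the nearest. Both sites were weak in Input 2, where their pileup was 9 and 9.

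Cdh5 (chr8:104101625-104144511, plus strand) had 10 and 6 (Input), 7 and 8 (Myc), and 5 and 6 (PCM1) peaks, and 6 and 6 (Input), 6 and 8 (Myc), and 5 and 6 (PCM1) at equal number. On average its strongest site was the main promoter (chr8:104101379-104101894), at 87.1 and 71.4 (Input), 80.8 and 89.3 (Myc), and 83.2 and 79.6 (PCM1). The summit pileup there was 183 and 39 (Input), 70 and 106 (Myc), and 58 and 49 (PCM1), and the groups overlapped. A site 5.80 kb upstream (chr8:104095502-104096101) came close to the promoter, at 85.8 and 74.6 (Input), 86.1 and 80.4 (Myc), and 79.4 and 84.1 (PCM1). Inside the gene, accessibility differed by site. The start of a shorter transcript, 9.32 kb downstream (chr8:104110574-104111206), ranked at 12.2 and 0 (Input), 47.2 and 46.2 (Myc), and no peak in PCM1. In intron 2, chr8:104121660-104122297 was found in Input and Myc and in neither PCM1 library, at 51.3 and 32.2 (Input), 29.7 and 33.6 (Myc), and no peak in PCM1. In intron 4, chr8:104126924-104127788 ranked at 68.0 and 67.9 (Input), 63.2 and 23.5 (Myc), and 77.4 and 73.0 (PCM1) at equal number, where Myc 2 lay far below the others. Downstream of the gene, chr8:104146294-104146829 ranked at 70.0 and 57.2 (Input), 63.2 and 75.3 (Myc), and 48.1 and 57.0 (PCM1) at equal number, with both Myc libraries above both PCM1 libraries.

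Kdr and Flt1 encode receptors for VEGF. Kdr is the main signalling receptor, through which VEGF drives endothelial growth and migration, while Flt1 binds VEGF more tightly, signals weakly and restrains the response, in part as a soluble form. Kdr (chr5:75932827-75978458, minus strand) had 12 and 8 (Input), 7 and 10 (Myc), and 8 and 9 (PCM1) peaks, and 6 and 8 (Input), 7 and 8 (Myc), and 8 and 8 (PCM1) at equal number. The highest mean rank was at its 3′ end, in the untranslated region (chr5:75933441-75934185), at 90.4 and 87.4 (Input), 84.9 and 88.9 (Myc), and 86.9 and 86.9 (PCM1). The promoter (chr5:75978059-75978887) ranked at 83.5 and 54.2 (Input), 84.9 and 86.0 (Myc), and 68.5 and 65.3 (PCM1), with pileups of 141 and 25 (Input), 80 and 82 (Myc), and 32 and 29 (PCM1). There both Myc libraries lay above both PCM1 libraries, also at equal number, at 71.2 and 54.2 (Input), 78.5 and 79.8 (Myc), and 65.2 and 62.4 (PCM1).

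Within Kdr the order turned with the site. In intron 10, chr5:75961787-75962609 ranked at 54.6 and 51.0 (Input), 30.9 and 32.3 (Myc), and 64.4 and 60.9 (PCM1) at equal number, and PCM1 was above Myc. In intron 3, chr5:75969809-75970752 ranked at 35.7 and 18.4 (Input), 60.7 and 54.1 (Myc), and 51.5 and 53.1 (PCM1) at equal number, with Input 2 lowest. Intron 27 had a peak in each library (chr5:75939315-75940276), at 57.5 and 46.6 (Input), 35.2 and 5.69 (Myc), and 29.9 and 29.6 (PCM1) with all peaks, and Input was above PCM1. Intron 1, which lies next to the promoter, had a peak in Input alone, at 23.3 and 7.02 (Input), no peak in Myc, and no peak in PCM1 with all peaks.

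Flt1 (chr5:147561604-147726011, minus strand) had the most regions of the 10 genes, 34, and 29 and 15 (Input), 24 and 18 (Myc), and 17 and 16 (PCM1) peaks, or 12 and 15 (Input), 17 and 14 (Myc), and 15 and 13 (PCM1) at equal number. The strongest site lay in intron 12, 80.6 kb from the TSS (chr5:147645105-147645639), at 89.4 and 82.9 (Input), 90.2 and 87.7 (Myc), and 87.3 and 85.8 (PCM1). Its relative height was even across groups, at 1.54 and 1.63 (Input), 1.76 and 1.55 (Myc), and 1.77 and 1.55 (PCM1). The promoter (chr5:147725283-147726709), the longest region of the 10 genes at 1427 bp, ranked at 79.0 and 63.4 (Input), 71.3 and 73.8 (Myc), and 60.9 and 63.3 (PCM1) with all peaks, with both Myc libraries above both PCM1 libraries, and at 63.4 and 63.4 (Input), 59.2 and 62.3 (Myc), and 56.8 and 60.3 (PCM1) at equal number, where Myc and PCM1 overlapped. Away from these sites the groups parted in both directions. In intron 18, chr5:147589719-147590405 ranked at 59.6 and 55.9 (Input), 49.5 and 60.9 (Myc), and 75.4 and 75.1 (PCM1) at equal number, highest in PCM1. In intron 14, chr5:147618279-147618593 had 32.1 and 0 (Input), 41.9 and 42.7 (Myc), and no peak in PCM1 with all peaks. In intron 1, chr5:147716278-147716686 was highest in Input with all peaks, at 54.2 and 63.4 (Input), 45.6 and 0 (Myc), and 0 and 3.41 (PCM1), while at equal number it ranked at 20.1 and 63.4 (Input), 22.6 and 0 (Myc), and no peak in PCM1, with Input 1 below Myc 1.

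Tek and Tie1 form the angiopoietin receptor family. Tek encodes the receptor tyrosine kinase that binds angiopoietins and keeps vessels quiescent, and Tie1 is its partner, which binds no angiopoietin by itself and modulates the signal. Tek (chr4:94739289-94874976, plus strand) had 15 and 8 (Input), 11 and 10 (Myc), and 8 and 9 (PCM1) peaks, and 7 and 8 (Input), 7 and 7 (Myc), and 6 and 8 (PCM1) at equal number. Neighbouring sites in intron 1 dominated the gene. The strongest, 13.3 kb from the TSS (chr4:94752322-94753000), ranked at 94.5 and 87.5 (Input), 89.9 and 92.0 (Myc), and 88.4 and 89.9 (PCM1). The next, at 7.31 kb (chr4:94746350-94746911), ranked at 88.0 and 80.02 (Input), 86.8 and 90.6 (Myc), and 89.6 and 83.6 (PCM1). Neither separated the groups.

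A further site, 6.61 kb from the TSS (chr4:94745724-94746117) and just ahead of the last one, did. It ranked at 86.8 and 77.9 (Input), 88.8 and 82.0 (Myc), and 54.8 and 55.6 (PCM1), and at equal number at 76.9 and 77.9 (Input), 84.1 and 74.1 (Myc), and 50.1 and 52.0 (PCM1). Summit pileups were 172 and 48 (Input), 98 and 73 (Myc), and 27 and 25 (PCM1), so the relative height was 1.52 and 1.60 (Input), 2.13 and 1.55 (Myc), and 0.900 and 0.862 (PCM1). PCM1 was the low group there, below Input and below Myc. The Tek promoter (chr4:94738692-94739708) was weaker than these intronic sites in every library and weakest in PCM1 1, at 46.1 and 18.8 (Input), 58.2 and 61.9 (Myc), and 4.33 and 29.2 (PCM1). Both Myc libraries ranked above the other 4 libraries. In intron 8, chr4:94826753-94827746 showed the widest gap of Myc over PCM1 in the gene, at 37.4 and 0 (Input), 55.8 and 53.2 (Myc), and no peak in PCM1, and in intron 4, chr4:94803084-94803673 ranked at 42.0 and 61.4 (Input), 65.8 and 71.9 (Myc), and 51.3 and 44.2 (PCM1) at equal number, again highest in Myc. In intron 1, chr4:94767046-94767388 was called in Input alone, at 41.0 and 40.6 (Input), no peak in Myc, and no peak in PCM1.

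Tie1 (chr4:118471191-118490061, minus strand) had few peaks, 4 and 2 (Input), 3 and 2 (Myc), and 2 and 2 (PCM1), and 2 and 2 (Input), 3 and 2 (Myc), and 2 and 2 (PCM1) at equal number. Its strongest site was the promoter (chr4:118489627-118490266), which at equal number also outranked the main promoters of the other 9 genes. It ranked at 94.6 and 90.5 (Input), 91.5 and 92.1 (Myc), and 92.1 and 89.5 (PCM1), with pileups of 319 and 83 (Input), 105 and 114 (Myc), and 82 and 68 (PCM1). The groups lay close together, although at equal number both PCM1 libraries ranked above both Myc libraries, PCM1 2 by less than the last digit shown, at 90.6 and 90.5 (Input), 87.9 and 88.7 (Myc), and 91.3 and 88.7 (PCM1). The difference of the means was smaller than that between the PCM1 replicates. The other site found in each library lay downstream of the gene (chr4:118465395-118466190), at 74.0 and 41.5 (Input), 68.8 and 68.8 (Myc), and 79.0 and 50.8 (PCM1).

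**Figure D3:**
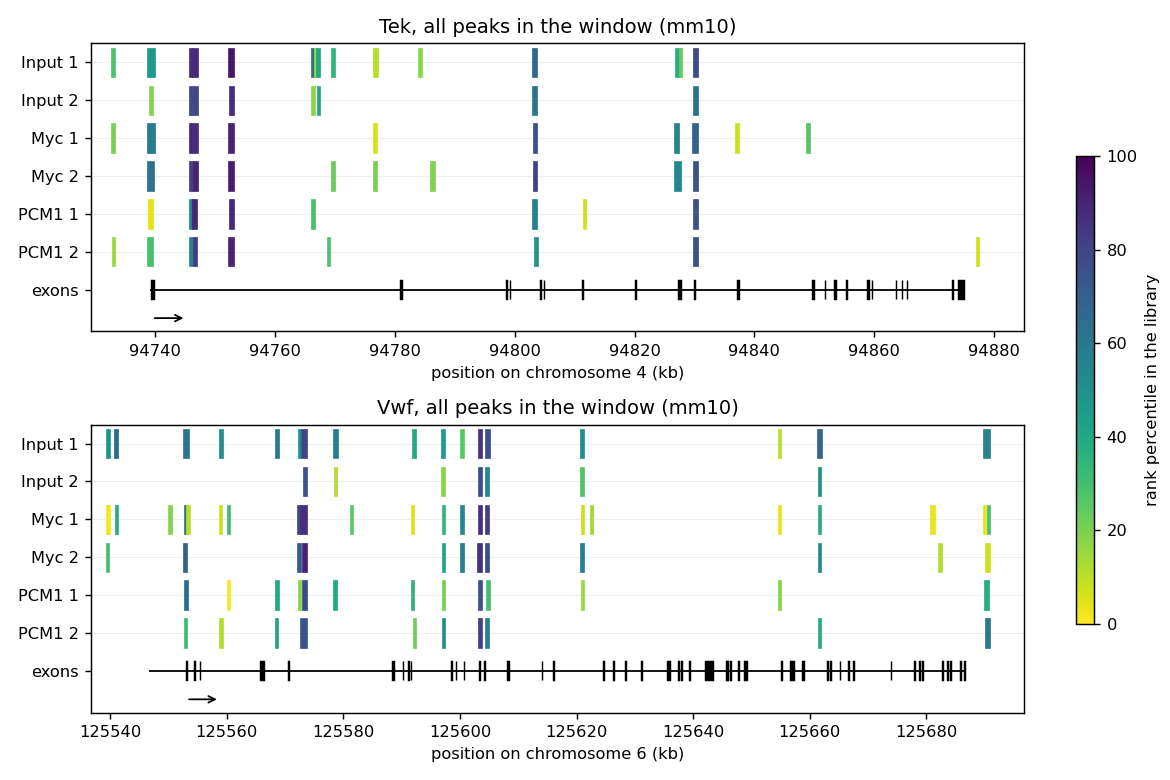
Peaks of the 6 libraries over the windows of Tek (chromosome 4) and Vwf (chromosome 6), with position in kb (mm10) on the horizontal axis, 1 track per library, exons of the main transcript as black boxes and an arrow at the main TSS; peaks are to scale with a thin outline, and colour gives the rank percentile in the library, all peaks included. The Tek sites at 7.31 and 13.3 kb from the TSS are dark in each library, while the Tek site in intron 8 and the Vwf site in intron 12 are drawn in Input 1, Myc 1 and Myc 2 alone.

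Emcn and Vwf encode a surface and a secreted product of endothelium. Emcn, endomucin, is a mucin-like protein of capillary, venous and endocardial surfaces, and Vwf is the clotting factor that endothelial cells store in Weibel-Palade bodies. Emcn (chr3:137341067-137432185, plus strand) was sparse, with 4 and 1 (Input), 4 and 3 (Myc), and 1 and 1 (PCM1) peaks and 1 and 1 (Input), 1 and 3 (Myc), and 1 and 1 (PCM1) at equal number in a window of 111 kb. The promoter (chr3:137340730-137341560) was the single site found in each library. It ranked at 58.5 and 20.5 (Input), 69.3 and 70.2 (Myc), and 26.7 and 51.6 (PCM1), or 27.5 and 20.5 (Input), 56.3 and 57.1 (Myc), and 19.1 and 47.6 (PCM1) at equal number. Pileups were 44 and 10 (Input), 32 and 35 (Myc), and 11 and 15 (PCM1). Both Myc libraries lay above the other 4, while the PCM1 replicates differed more from each other than PCM1 2 did from Myc. In intron 6, chr3:137418631-137418951 ranked at 27.9 and 0 (Input), 20.7 and 44.3 (Myc), and no peak in PCM1 with all peaks, and at equal number Myc 2 alone had it, at 19.8.

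Vwf (chr6:125546774-125686679, plus strand) had 17 and 7 (Input), 22 and 12 (Myc), and 13 and 10 (PCM1) peaks, and 14 and 7 (Input), 10 and 9 (Myc), and 12 and 10 (PCM1) at equal number. Its window also holds a part of Ano2. On average the strongest site lay on a coding exon, 50.4 kb from the TSS (chr6:125603185-125603586), at 85.9 and 76.5 (Input), 85.4 and 85.2 (Myc), and 74.6 and 80.95 (PCM1). The promoter (chr6:125552728-125553493) ranked at 61.4 and 0 (Input), 61.6 and 69.8 (Myc), and 65.5 and 31.6 (PCM1), so Input 2 had no peak there and the PCM1 replicates spanned a wide range.

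Several introns of Vwf set Myc apart from PCM1. In intron 6, chr6:125572306-125572646 ranked at 48.2 and 0 (Input), 79.2 and 72.6 (Myc), and 18.1 and 0 (PCM1), and its neighbour chr6:125572820-125573612 at 64.4 and 74.4 (Input), 80.8 and 86.6 (Myc), and 75.7 and 71.3 (PCM1) at equal number. In intron 12, chr6:125600227-125600498 ranked at 26.0 and 0 (Input), 55.0 and 57.8 (Myc), and no peak in PCM1. In intron 15, chr6:125604492-125605036 ranked at 57.1 and 54.2 (Input), 73.4 and 67.5 (Myc), and 22.6 and 53.0 (PCM1) at equal number. At each of these sites both Myc libraries ranked above both PCM1 libraries, and in introns 6 and 12 a peak was absent from 1 or both of the PCM1 lists. Vwf also held the 1 region called in both PCM1 libraries and in neither Myc library with all peaks. It lies in intron 5 (chr6:125568428-125568774) and ranked at 58.5 and 0 (Input), no peak in Myc, and 39.5 and 40.9 (PCM1). In intron 18, chr6:125620789-125621125 had the widest gap of Input over PCM1, at 51.9 and 27.8 (Input), 8.12 and 57.5 (Myc), and 15.4 and 0 (PCM1). Downstream of the gene, chr6:125689918-125690742 ranked at 55.0 and 0 (Input), 29.1 and 7.80 (Myc), and 38.3 and 59.8 (PCM1), and at equal number it dropped out of both Myc lists.

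Erg and Sox17 encode transcription factors. Erg, an ETS family protein, activates junction genes such as Cdh5 and keeps endothelial cells differentiated, and Sox17, of the SOXF group, acts in arterial endothelium. Erg (chr16:95359169-95586593, minus strand) is the longest gene of the set at 227 kb and had 27 and 16 (Input), 21 and 19 (Myc), and 18 and 15 (PCM1) peaks, or 16 and 16 (Input), 13 and 15 (Myc), and 15 and 13 (PCM1) at equal number. No library had a peak within 1 kb of its main TSS at position 95530365. An internal promoter, where other Erg transcripts start, was accessible instead (chr16:95459024-95459756), at 73.9 and 53.7 (Input), 77.6 and 81.7 (Myc), and 63.7 and 57.0 (PCM1). There both Myc libraries ranked highest, also at equal number, at 54.4 and 53.7 (Input), 68.1 and 73.7 (Myc), and 59.9 and 53.5 (PCM1). The promoter at the far 5′ end of the gene (chr16:95585184-95586070) ranked at 69.8 and 44.9 (Input), 48.1 and 42.3 (Myc), and 31.6 and 33.0 (PCM1), highest in Input 1. At equal number it ranked at 47.2 and 44.9 (Input), 26.1 and 16.9 (Myc), and 24.6 and 27.5 (PCM1), where Myc and PCM1 overlapped.

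The strongest Erg site on average lay in intron 2 (chr16:95432184-95433121), at 88.4 and 77.9 (Input), 84.5 and 84.4 (Myc), and 83.3 and 81.7 (PCM1), with both Myc libraries above both PCM1 libraries. At equal number that order turned, at 79.8 and 77.9 (Input), 77.9 and 77.5 (Myc), and 81.6 and 80.2 (PCM1). In the same intron, chr16:95438823-95440154 ranked at 67.5 and 75.3 (Input), 69.7 and 70.4 (Myc), and 59.7 and 53.3 (PCM1) at equal number, and PCM1 was lowest. Also in intron 2, chr16:95449287-95449880 ranked at 56.4 and 17.4 (Input), 77.3 and 75.6 (Myc), and 45.3 and 28.2 (PCM1), with pileups of 45 and 12 (Input), 48 and 48 (Myc), and 17 and 13 (PCM1). Both Myc libraries were above the other 4 there. Farther into the gene the order of the groups varied by site. In intron 4, chr16:95385207-95385658 ranked at 71.9 and 80.5 (Input), 49.99 and 54.1 (Myc), and 82.7 and 80.6 (PCM1) at equal number, with Myc lowest. In intron 7, chr16:95376156-95376812 ranked at 77.8 and 57.2 (Input), 64.1 and 67.5 (Myc), and 85.1 and 85.0 (PCM1) at equal number, and PCM1 had its strongest Erg peak there, whereas with all peaks Input 1 was highest, at 87.3. In intron 3, chr16:95401861-95402332 ranked at 0 and 26.4 (Input), no peak in Myc, and 22.5 and 44.7 (PCM1) at equal number. Downstream of Erg, chr16:95350534-95350792 was called in both Myc libraries and in no other, at no peak in Input, 48.8 and 38.4 (Myc), and no peak in PCM1, and its nearest TSS is that of Kcnj15. In intron 7 as well, chr16:95372980-95373299 was called in Input and Myc 1, at 39.0 and 24.9 (Input), 18.9 and 0 (Myc), and no peak in PCM1.

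Sox17 (chr1:4490931-4497354, minus strand) had 3 and 1 (Input), 2 and 2 (Myc), and 2 and 2 (PCM1) peaks, and 1 and 1 (Input), 2 and 1 (Myc), and 1 and 1 (PCM1) at equal number. No library had a peak within 1 kb of its main TSS at equal number, and with all peaks Input 1 alone had a peak there (chr1:4497408-4497727), at 34.4. The site found in each library (chr1:4493138-4493858) covers the start of a shorter transcript and ranked at 52.8 and 0.407 (Input), 52.4 and 58.4 (Myc), and 40.5 and 35.9 (PCM1). Input 2 had it among its weakest peaks, and Myc was above PCM1. At equal number Myc and PCM1 overlapped at this site, at 17.6 and 0.407 (Input), 32.3 and 40.1 (Myc), and 34.3 and 30.7 (PCM1). On a coding exon, chr1:4491716-4492380 ranked at 41.1 and 0 (Input), 55.3 and 18.0 (Myc), and 0 and 3.18 (PCM1). At equal number Myc 1 alone had this site, at 36.3. Sox17 and Emcn had the weakest strongest peaks of the 10 genes.

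At the main TSS, 8 of the 10 genes had a peak in at least 1 library at equal peak number. Kdr, Tek and Emcn, 3 of these 8, ranked higher in both Myc libraries than in either PCM1 library, where 48.6% of the protein-coding genes compared did. Pecam1 and Tie1, 2 of the 8, ranked higher in both PCM1 libraries, where 15.5% did. With all peaks, the number of genes with a TSS peak was 9 and 7 (Input), 8 and 8 (Myc), and 8 and 8 (PCM1) of the 10, and the share of protein-coding genes with one was 66.8 and 60.7 (Input), 64.5 and 64.3 (Myc), and 61.0 and 60.7 (PCM1), in percent. Each gene can be placed by its strongest peak, at equal number, from Pecam1 (98.4 in PCM1 2) down to Sox17 (0.407 in Input 2). Tie1 and Tek followed Pecam1, with percentiles of 90.6 and 90.5 (Input), 87.9 and 88.7 (Myc), and 91.3 and 88.7 (PCM1) for Tie1 and 90.4 and 87.5 (Input), 85.6 and 88.5 (Myc), and 88.5 and 89.1 (PCM1) for Tek, and their libraries overlap. Flt1, at 81.4 and 82.9 (Input), 86.1 and 82.3 (Myc), and 86.0 and 84.6 (PCM1), and Kdr, at 83.2 and 87.4 (Input), 78.5 and 84.0 (Myc), and 85.6 and 85.9 (PCM1), do not differ beyond their spread.

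The lower part of that order was less even. Erg stood at 79.8 and 80.5 (Input), 77.9 and 77.5 (Myc), and 85.1 and 85.0 (PCM1), and PCM1 lay above the other groups. Cdh5 stood at 77.5 and 74.6 (Input), 80.2 and 84.5 (Myc), and 81.5 and 82.8 (PCM1), where Input was lowest. Vwf stood at 75.4 and 76.5 (Input), 80.8 and 86.6 (Myc), and 75.7 and 79.4 (PCM1), with Myc above the rest. These 3 genes overlap one another across libraries. Emcn, at 27.5 and 20.5 (Input), 56.3 and 57.1 (Myc), and 19.1 and 47.6 (PCM1), and Sox17, at 17.6 and 0.407 (Input), 36.3 and 40.1 (Myc), and 34.3 and 30.7 (PCM1), stood apart from the other 8 genes in each library.

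Peaks of the 6 libraries that overlapped or touched were merged, which gave 164 regions over the 10 windows, out of 169872 in the genome. By annotation, 119 lay in introns, 17 at promoters of any of the genes' transcripts, 13 downstream and 8 upstream of a gene, 4 on coding exons and 3 on untranslated regions. Of the regions, 8.54% lay within 1 kb of a main TSS, against 9.44% of merged regions in the genome. Of the 164 regions, 56 were called in each of the 6 lists, or 34.1%, against 28.8% in the genome. These shared regions had a median length of 651 bp, and 39 of them were intronic and 10 at promoters. A merged region spans the peaks of every list that called it, so its length tends to rise with the number of lists. Another 41 of the 164 regions were found in a single library, against 51697 of the 169872 in the genome, and had a median length of 231 bp. Of the 41, 16 were in Input 1, 14 in Myc 1, 3 in Myc 2, 4 in PCM1 1 and 4 in PCM1 2, and none in Input 2.

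Among the 56 shared regions, 23 ranked higher in both Myc libraries than in either PCM1 library with all peaks and 9 ranked higher in PCM1. At equal number the counts became 13 and 21. In the genome the corresponding shares of shared regions were 45.6% and 16.4%, and 27.1% and 32.8% at equal number. The group that led thus changed with the length of the lists over shared regions of the genome as it did over the endothelial ones.

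Regions missing from a group were less frequent. Of the 81 regions called in both Myc libraries, 11 were absent from both PCM1 libraries, or 13.6%, against 17.7% of such regions in the genome. They lay in Pecam1 (2), Cdh5 (2), Flt1 (1), Tek (2), Emcn (1), Erg (1) and Vwf (2). At equal number 7 of 66 were absent, or 10.6%, against 10.5%. Of the 64 regions called in both PCM1 libraries, 1 was absent from both Myc libraries, or 1.56%, against 3.09% in the genome, and at equal number 5 of 61 were, or 8.20%, against 7.44%. The 5 were in Erg (2) and Vwf (3). Of the 76 regions called in both Input libraries, 8 were absent from both PCM1 libraries, or 10.5%, against 11.0% in the genome. At equal number it was 4 of 65, or 6.15%, against 6.98%. The endothelial shares were thus near those of the genome or below them.

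These counts rest on few regions, and each asks for a peak in both libraries of 1 group and in neither of another. With a library left out the rule is looser, so a count can only stay or rise. The 11 Myc regions became 35 without Myc 2, 23 without Myc 1 and 17 without PCM1 1. The 8 Input regions became 47 without Input 2 and 15 without PCM1 1, and the 1 PCM1 region became 7 without PCM1 1, 8 without PCM1 2 and 2 without Myc 1 or without Myc 2. For the 11 Myc regions, the mean Myc height, scaled by the median pileup of shared regions, corresponds to a pileup of 6.45 to 24.5 in PCM1 1 and 6.23 to 23.7 in PCM1 2. The smallest pileup called there at the genome-wide background was 5. The regions were chosen by their Myc peaks, and the local background in PCM1 is not known where no peak was called, so that the part of depth in their absence cannot be told apart from a lower signal.

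A region counted for a gene when any part of it lay in the window, and peaks lay on both sides of the 10 kb limit. Across it, chr5:75922646-75923140, with its summit 9.94 kb from Kdr, ranked at 82.6 and 4.83 (Input), 78.6 and 76.8 (Myc), and 73.5 and 75.03 (PCM1). Inside it, chr5:147551948-147552308, with its summit 9.48 kb from Flt1, was called in Input 1 alone, at 26.9. Outside it, chr4:118500108-118500678, with its near edge 10.05 kb from Tie1, ranked at 59.9 and 12.9 (Input), 72.2 and 65.7 (Myc), and 23.8 and 53.7 (PCM1), and chr16:95347082-95347931, with its near edge 11.2 kb from Erg, at 92.8 and 88.8 (Input), 88.6 and 87.7 (Myc), and 89.7 and 90.8 (PCM1).

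Sequence played no part in the choice of the regions. Short motifs were searched on both strands in the 100 bases on each side of the summit, in the 164 endothelial and the 169872 merged regions. The ETS core AGGAAG, whose opposite strand reads CTTCCT, is a form of the element bound by factors such as Erg. It was present in 71 of the 164 regions, or 43.3% against 30.04% of merged regions. In the 56 regions of all 6 libraries it was in 44.6%, against 28.1% of such regions in the genome. In the 11 regions called in both Myc and in neither PCM1 library it was in 8, against 32.1% of the 14757 such regions in the genome. In the same 11, SOX, TEAD and AP-1 were in 1 each, against 11.7%, 15.4% and 10.02% of those genome regions, MEF2 and KLF/SP in 2 each, against 20.5% and 6.70%, and GATA and FOX in none, against 12.5% and 3.16%. The 11 come from 7 genes and the shares were not tested. The SOX core AACAAT, whose opposite strand reads ATTGTT, was found in 14.0% against 8.63%, and in shared regions in 19.6% against 6.45%. MEF2, searched as CTANNNNTA and on the opposite strand as TANNNNTAG, was found in 41 of the 164 regions against 19.1% of merged regions. GATA, read as AGATAA and on the opposite strand as TTATCT, was in 22 of the 164 regions, or 13.4%, against 12.02%. TEAD, read as GGAATG and on the opposite strand as CATTCC, was in 16.5% against 15.0%. AP-1, TGANTCA on both strands, was in 9.15% against 8.82%. FOX, read as GTAAACA and on the opposite strand as TGTTTAC, was in 1.83% against 2.81%. KLF/SP, read as GGGCGG and on the opposite strand as CCGCCC, was in 9.76% against 11.2%, and in shared regions in 14.3% against 23.7%.

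By gene, the ETS core was in 12 of 25 regions of Pecam1, 5 of 10 of Cdh5, 7 of 11 of Kdr, 13 of 34 of Flt1, 10 of 20 of Tek, 2 of 4 of Tie1, 1 of 5 of Emcn, 10 of 23 of Vwf, 9 of 28 of Erg itself and 2 of 4 of Sox17. Median GC content was 51.2% in the endothelial regions and 50.7% in merged regions. A match is a description of the letters, not a bound site. Regions of 1 gene share their source, and the shares were not tested.

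Promoters are shown for Kdr, Flt1, Tek, Emcn and the internal Erg promoter. With all peaks the values above set each of them higher in both Myc than in both PCM1 libraries. At equal number this order was lost for Flt1 alone among those shown. The Erg promoter at the far 5′ end also had the order with all peaks and lost it at equal number, and is not shown. The bases come from RefSeq promoters on GRCm38.p6, the assembly also called mm10, where 6 of the 10 genes matched; Pecam1, Cdh5, Vwf and Sox17 had no entry. Tie1 matched but is not shown, since its promoter runs into an annotated exon. Each is read 5′ to 3′ on the strand of the gene and ends before its annotated exons, with motif matches in capitals. The Emcn promoter holds an ETS and a SOX match, Tek a SOX match, Flt1 a pair each of ETS and KLF/SP matches, Kdr a KLF/SP match, and the internal Erg promoter ETS, SOX and GATA matches.
Kdr promoter (chr5:75978459-75978605, minus strand): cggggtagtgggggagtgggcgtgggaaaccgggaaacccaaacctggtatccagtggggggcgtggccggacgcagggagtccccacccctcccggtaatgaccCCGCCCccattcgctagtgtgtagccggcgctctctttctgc
Flt1 promoter (chr5:147726012-147726161, minus strand): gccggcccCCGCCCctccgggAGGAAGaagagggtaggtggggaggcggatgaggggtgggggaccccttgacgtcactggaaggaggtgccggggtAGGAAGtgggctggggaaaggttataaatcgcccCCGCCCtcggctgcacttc
Tek promoter (chr4:94739139-94739288, plus strand): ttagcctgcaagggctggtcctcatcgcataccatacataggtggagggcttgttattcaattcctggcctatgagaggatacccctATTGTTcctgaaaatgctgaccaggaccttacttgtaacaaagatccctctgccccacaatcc
Emcn promoter (chr3:137340928-137341066, plus strand): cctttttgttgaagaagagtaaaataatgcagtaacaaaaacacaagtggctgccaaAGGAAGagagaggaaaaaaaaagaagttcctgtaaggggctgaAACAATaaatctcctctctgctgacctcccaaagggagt
Erg internal promoter (chr16:95459349-95459498, minus strand): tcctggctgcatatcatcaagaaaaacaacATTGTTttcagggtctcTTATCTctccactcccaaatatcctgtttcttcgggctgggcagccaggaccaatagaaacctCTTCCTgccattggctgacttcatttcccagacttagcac

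Intronic sites are shown around their summits, from the same assembly and on the strand of the gene, with the same use of capitals. The Tek site in intron 1 that was strongest on average, the Erg site in intron 2 of the same kind, and the Tek intron 8, Flt1 intron 14 and Emcn intron 6 sites with the widest gap of Myc over PCM1, taken with all peaks, were chosen by these values. The Tek site at 6.61 kb and the Erg site at 80.88 kb, both higher in Myc than in PCM1, were chosen after their values were seen. The Erg site at 80.88 kb holds 4 ETS and 2 FOX matches, and the Tek site at 6.61 kb an ETS and a MEF2 match. Of the sites shown, those with the widest gap in Tek, Flt1 and Emcn hold at least 1 ETS match, which in Flt1 is a pair that shares letters in CTTCCTTCCT. The strongest site of Tek holds a KLF/SP match, and that of Erg GATA and MEF2 matches. ETS content did not follow this division beyond the sites shown, within Flt1 or in other genes. The strongest sites of Flt1, Kdr and Vwf, not shown, hold the ETS core. The upstream Pecam1 site and the Kdr promoter, both higher in Myc, do not.
Tek intron 1, strongest site (chr4:94752513-94752713, plus strand): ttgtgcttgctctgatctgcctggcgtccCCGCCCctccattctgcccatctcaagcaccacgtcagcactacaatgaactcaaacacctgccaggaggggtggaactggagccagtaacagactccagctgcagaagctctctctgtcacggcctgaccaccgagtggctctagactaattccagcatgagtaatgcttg
Tek intron 1, site at 6.61 kb (chr4:94745814-94746014, plus strand): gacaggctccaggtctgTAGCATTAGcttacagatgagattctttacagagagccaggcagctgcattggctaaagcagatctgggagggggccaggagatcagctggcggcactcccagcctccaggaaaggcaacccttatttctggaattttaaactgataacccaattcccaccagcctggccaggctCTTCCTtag
Tek intron 8 (chr4:94827004-94827204, plus strand): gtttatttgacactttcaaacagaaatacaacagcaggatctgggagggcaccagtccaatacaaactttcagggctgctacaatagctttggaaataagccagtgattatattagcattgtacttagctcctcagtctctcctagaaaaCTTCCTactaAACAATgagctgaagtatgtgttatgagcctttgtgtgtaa
Flt1 intron 14 (chr5:147618344-147618544, minus strand): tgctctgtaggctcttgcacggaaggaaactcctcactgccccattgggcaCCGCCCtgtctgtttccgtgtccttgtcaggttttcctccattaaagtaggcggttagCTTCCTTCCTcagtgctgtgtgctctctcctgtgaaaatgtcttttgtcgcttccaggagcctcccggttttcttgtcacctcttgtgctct
Emcn intron 6 (chr3:137418694-137418894, plus strand): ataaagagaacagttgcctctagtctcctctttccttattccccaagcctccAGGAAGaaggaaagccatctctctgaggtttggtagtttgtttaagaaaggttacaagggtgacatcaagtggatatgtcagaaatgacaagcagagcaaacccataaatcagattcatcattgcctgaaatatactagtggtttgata
Erg intron 2, strongest site (chr16:95432740-95432940, minus strand): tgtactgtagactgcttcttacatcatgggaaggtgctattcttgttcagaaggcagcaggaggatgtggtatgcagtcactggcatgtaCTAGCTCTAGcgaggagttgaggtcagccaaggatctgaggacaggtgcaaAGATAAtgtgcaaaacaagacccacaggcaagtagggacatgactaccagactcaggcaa
Erg intron 2, site at 80.88 kb (chr16:95449382-95449582, minus strand): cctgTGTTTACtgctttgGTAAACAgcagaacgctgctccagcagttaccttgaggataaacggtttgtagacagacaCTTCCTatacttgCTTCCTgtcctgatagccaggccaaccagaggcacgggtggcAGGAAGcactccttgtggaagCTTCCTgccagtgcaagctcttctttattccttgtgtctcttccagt

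Genes that act with these receptors and factors were read the same way, at equal peak number. For the difference between the Myc and the PCM1 mean in the percentile of the strongest peak, the median over the 10 endothelial genes was −1.41, from 23.3 for Emcn to −7.37 for Erg, against 1.17 over the 18015 protein-coding genes with a peak. The 8 ligands (Vegfa, Vegfb, Vegfc, Vegfd, Pgf, Angpt1, Angpt2 and Angptl4) had 39 and 37 (Input), 36 and 31 (Myc), and 34 and 37 (PCM1) peaks and a median difference of −1.02. Angpt1, the activating ligand of Tek, was highest at 14.4, with percentiles of 72.1 and 68.0 (Input), 74.3 and 76.4 (Myc), and 50.9 and 71.1 (PCM1). Angpt2, a context-dependent antagonist of the same receptor, was lowest at −21.8, with 41.8 and 36.8 (Input), 54.5 and 43.7 (Myc), and 68.8 and 73.0 (PCM1). By their strongest peak, the ligands of Tek therefore lay at opposite ends, though the Angpt1 value rests on PCM1 1. At the main TSS the Myc mean was the lower for both, with differences of −12.2 for Angpt1 and −60.9 for Angpt2.

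The 8 further receptors and coreceptors (Flt4, Nrp1, Nrp2, Eng, Acvrl1, Robo4, S1pr1 and Ptprb) had 68 and 64 (Input), 67 and 60 (Myc), and 60 and 67 (PCM1) peaks, with a median difference of 0.0617. Ptprb, the endothelial phosphatase that acts on Tek, was highest at 16.1, from 77.3 and 70.7 (Input), 83.2 and 84.2 (Myc), and 69.2 and 66.0 (PCM1), and Eng, a coreceptor of BMP signalling, lowest at −5.04, from 84.6 and 81.5 (Input), 78.8 and 77.6 (Myc), and 81.1 and 85.4 (PCM1). At its main TSS Eng had the opposite order, with 69.5 and 51.3 (Input), 74.5 and 64.8 (Myc), and 46.03 and 54.8 (PCM1). The 14 transcription factors (Fli1, Ets1, Ets2, Elk3, Etv2, Etv6, Sox7, Sox18, Tal1, Lyl1, Gata2, Klf2, Klf4 and Hhex) had 94 and 96 (Input), 95 and 90 (Myc), and 110 and 102 (PCM1) peaks and a median of 0.523. Etv2, which starts the endothelial programme in the embryo, was highest at 17.7, from 87.5 and 84.1 (Input), 93.5 and 94.2 (Myc), and 78.2 and 74.1 (PCM1), and Fli1, the closest relative of Erg, lowest at −3.97, from 73.7 and 62.3 (Input), 70.3 and 68.2 (Myc), and 74.6 and 71.8 (PCM1). The strongest Etv2 peak is not at its main TSS, where the percentiles were 19.3 and 0 (Input), 20.1 and 0 (Myc), and 20.2 and 33.2 (PCM1). The 8 junction and surface genes (Cldn5, Esam, Icam2, Mcam, Cd34, Egfl7, Mmrn2 and Clec14a) had 35 and 33 (Input), 35 and 36 (Myc), and 32 and 34 (PCM1) peaks, with a median of −0.00315. Cldn5, the claudin of endothelial tight junctions, was highest at 6.87 and Mcam lowest at −10.0.

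Markers of the related and the other cell types of the heart give the frame. Endocardial markers (Npr3, Nfatc1, Cgnl1, Hapln1, Tmem100 and Plvap) had 52 and 49 (Input), 54 and 50 (Myc), and 50 and 54 (PCM1) peaks, with a median difference of −3.94. Hapln1, a link protein of the cardiac jelly, was highest at 10.8 and at equal number had no peak in either PCM1 library, while with all peaks PCM1 2 had 1, and Tmem100 was lowest at −12.2. At its main TSS Tmem100 had the opposite order, with 49.8 and 18.3 (Input), 52.6 and 40.7 (Myc), and 8.61 and 4.01 (PCM1). Lymphatic markers (Prox1, Lyve1, Pdpn, Flt4, Mmrn1 and Ccl21a) had 24 and 25 (Input), 24 and 24 (Myc), and 24 and 23 (PCM1) peaks, with a median of 1.76, from 6.63 for Lyve1 to −38.4 for Ccl21a. Flt4 is in this list and among the receptors.

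Among the lists, cardiomyocyte markers had the lowest median difference. It was −6.94, and 9 of 10 ranked higher in both PCM1 libraries, against 22.4% of protein-coding genes, from −12.5 for Myh6 to 1.34 for Nppa. Myh6 and Myh7, whose windows share peaks, are both among the 9. Fibroblast markers (Col1a1, Col1a2, Col3a1, Pdgfra, Tcf21, Postn, Dcn and Lum) had 26 and 23 (Input), 24 and 28 (Myc), and 21 and 18 (PCM1) peaks and a median of 6.46, from 21.6 for Col3a1 to −4.71 for Col1a1. Of these 8, 4 ranked higher in both Myc libraries and 1 in both PCM1 libraries, near the 43.3% and below the 22.4% of protein-coding genes. At the main TSS 6 of the 8 ranked higher in both Myc libraries and none in both PCM1 libraries, against 48.6% and 15.5% of protein-coding genes, and 3 of the 8 had more peaks in both Myc libraries, against 10.2%. At equal number Pdgfra had the most peaks in each library and Lum had peaks in Myc 2 alone, whereas with all peaks Lum had 1 and 0 (Input), 2 and 2 (Myc), and 0 and 1 (PCM1). Their part in the endothelial values was not tested. Smooth muscle and pericyte markers (Myh11, Cnn1, Tagln, Pdgfrb, Rgs5, Kcnj8, Cspg4 and Notch3) had 38 and 39 (Input), 31 and 37 (Myc), and 39 and 41 (PCM1) peaks and a median of 0.915, from 18.6 for Rgs5 to −15.6 for Kcnj8. Leukocyte markers (Ptprc, Cd68, Csf1r, Adgre1, Spi1, Cx3cr1, Lyz2 and Cd14) had 33 and 32 (Input), 27 and 30 (Myc), and 32 and 32 (PCM1) peaks and a median of −0.550, from 40.4 for Ptprc to −31.9 for Csf1r, and Adgre1 had no peak in any library. Few of the 8 had a peak at the main TSS, 1 and 2 (Input), 0 and 1 (Myc), and 1 and 1 (PCM1). Cd68, Cx3cr1 and Spi1 had high-ranked peaks in their windows but none at the main TSS in any library. Windows of listed genes can reach into other genes, which are not named here.

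The main TSS gave other values than the strongest peak. There, at equal number and with 0 for a gene without a TSS peak, the median difference between the Myc and the PCM1 mean was 1.09 for the 10 endothelial genes, −7.87 for the ligands, 11.98 for the further receptors, 1.28 for the transcription factors and 3.15 for the junction and surface genes. It was −2.54 for endocardial, 0 for lymphatic, −7.72 for cardiomyocyte, 11.98 for fibroblast, −1.39 for smooth muscle and pericyte and 0 for leukocyte markers, against 2.24 over the protein-coding genes with a TSS peak. That last value leaves out genes without a TSS peak, so the list medians are not directly comparable with it. Erg and Sox17 count as 0 in the endothelial median. The others lay at −12.3 (Pecam1), −1.70 (Tie1), −1.06 (Cdh5), 2.17 (Flt1), 6.95 (Vwf), 15.3 (Kdr), 23.3 (Emcn) and 31.1 (Tek). In the same order of lists, the genes higher in both Myc and those higher in both PCM1 libraries numbered 3 and 2 of 10, 2 and 4 of 8, 5 and 1 of 8, 5 and 2 of 14 and 3 and 0 of 8. For the markers of the cell types they numbered 2 and 1 of 6, 1 and 1 of 6, 1 and 6 of 10, 6 and 0 of 8, 2 and 2 of 8 and 0 and 0 of 8. The shares of protein-coding genes with a TSS peak were 48.6% and 15.5%, whereas the lists also hold genes without one. None of these differences was tested.

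**Figure D4:**
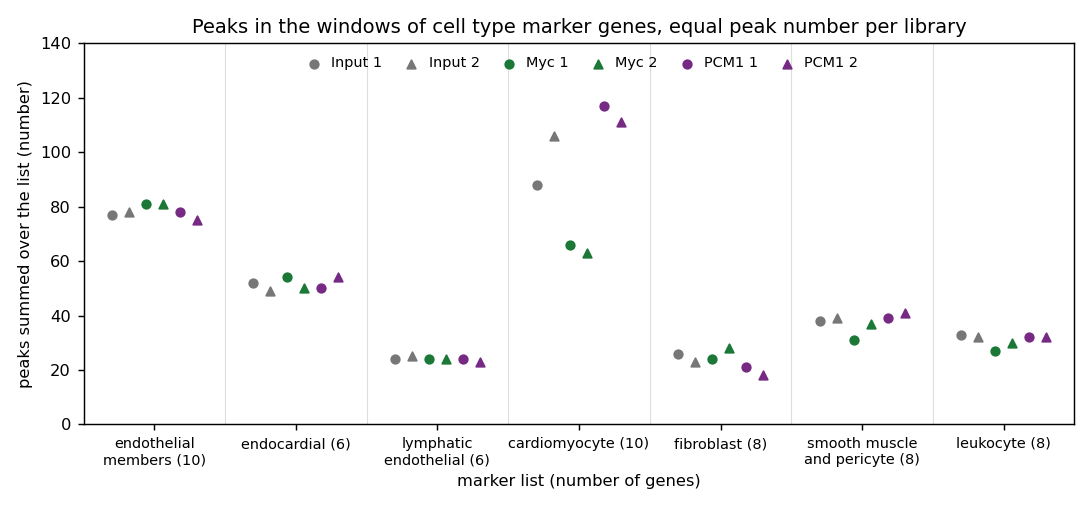
Peaks summed over the windows of each marker list (vertical axis, number of peaks) at equal peak number, for 7 lists with their number of genes on the horizontal axis; circles are replicate 1 and triangles replicate 2 of Input (grey), Myc (green) and PCM1 (purple). The endothelial genes span 75 to 81 peaks, whereas the cardiomyocyte markers span 63 to 117, with both Myc libraries lowest. Peaks shared by the windows of Myh6 and Myh7 count for each of them.

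At equal peak number, other genes had a similar, nearly even profile of peak number. Among 10604 genes with at least 5 regions, the profiles nearest to the median endothelial profile, by Euclidean distance over the 6 libraries after division by each gene's mean, were those of Ift43, Col27a1, Kdm6b, Apobec2 and Nfib, at distances of 0.113 to 0.121. Ift43 had 9 and 10 (Input), 10 and 10 (Myc), and 9 and 9 (PCM1) peaks at equal number. Of the 10 endothelial genes, Pecam1 lay nearest to their median, at 0.149, and Emcn farthest, at 1.33. No p-value was computed, because each group had 2 libraries and the genes were named with results of these libraries known.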

How the data were processed

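The authors trimmed reads with fastq-mcf (checked with FastQC 0.11.5), mapped them to mm10 with Bowtie2 2.3.3.1, marked duplicates with Picard 2.2.1, removed blacklisted regions with bedtools 2.7.1, shifted reads for the transposase and called peaks per library with MACS2 2.1.0.20160309 at q 0.05 without a control library; HOMER is also listed. The deposited score is −log10 q times 10, truncated. The deposited fold enrichment is the summit pileup over the local background, as MACS2 made it. The deposited −log10 p and −log10 q values come from the same peak calls. Summit pileups were solved here from fold and −log10 p.

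Members and lists were chosen with earlier results of these data known. Of the planned marker lists, 2 of blood cells are not used here. By the rule, named regions were, for each gene, the one with the highest mean rank percentile, the one at the main start site, and those with the largest gap between the lower library of one group and the higher of another. Regions outside this rule were chosen after their values were seen, and named genes of a list are its highest and lowest in Myc minus PCM1. Gene profiles were ranked by distance to the median endothelial profile. Counts of genes and regions compared both libraries of a group with both of another. Work used Python 3.11.15, numpy 2.4.6, scipy 1.17.1, pandas 2.3.3 and matplotlib 3.10.9.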

Additional observations from a re-analysis of the deposited data

How the results depend on the processing

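Peaks over the 10 genes averaged 108.5 in Input, 111 in Myc and 85 in PCM1, and the strongest peak ranked at 76.9, 84.1 and 77.9 on average. Of the alternatives, 166 values stayed within the limits, 32 moved and 6 reversed. The limit was a factor of 1.5 for counts of regions and genes, and 1 standard deviation between replicates for other values. A change of sign counted as reversed. Leaving out 1 of the 2 libraries of a group shifts its mean by less than that standard deviation. Means and differences could then stay or reverse but not move, so their count within the limits is no measure of stability. For Input the standard deviation was 43.1 peaks, and 77.5 peaks at equal number in place of 108.5 counted as within the limits. Differences in summit height are on another scale and were compared by sign alone.

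With equal peak number, Myc had 81 and PCM1 76.5 peaks, a difference of 4.5 in place of 26, and the strongest peak ranked at 77.2 in Myc and 75.9 in PCM1, a difference of 1.33 in place of 6.15. The sign of this 1.33 rests on Emcn, at 23.3, and the median difference over the 10 genes was −1.41. Regions in both Myc and neither PCM1 library fell from 11 to 7, those in both PCM1 and neither Myc library rose from 1 to 5, and those in both Input and neither PCM1 library fell from 8 to 4. With windows of 2 kb, PCM1 had 78 peaks. With 50 kb, Input had 162.5, Myc 175.5 and PCM1 134.5 peaks, a Myc to PCM1 difference of 41, the strongest peak ranked at 87.7 in Myc and 84.6 in PCM1, a difference of 3.1002, 90 regions were in each library, 21 in Myc without PCM1 and 2 in PCM1 without Myc. Ranked by fold enrichment, Myc stood at 81.2, 2.62 above PCM1. By nearest start site, 5 regions were in Input without PCM1. By summit height the differences reversed, to −0.305 for Myc minus PCM1 and 0.140 for Input minus Myc. Both reversals rest on Pecam1, whose strongest site had heights of 6.95 and 6.60 (Input), 4.63 and 4.04 (Myc), and 7.63 and 7.79 (PCM1). A q-value of 0.01, an overlap rule of 50% and a promoter distance of 200 bp moved nothing beyond the limits, though with the overlap rule regions in all 6 libraries fell from 56 to 38.

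With 1 library left out, Input minus PCM1 ran from −7 to 54 peaks and from −8.17 to 6.06 in percentile, and Input minus Myc from −33 to 28 peaks, with 7.5 without Myc 1. Myc minus PCM1 ran from 16 to 36 peaks. Regions in Myc without PCM1 ran from 11 to 35, in PCM1 without Myc from 1 to 8 and in Input without PCM1 from 8 to 47. These region counts could only stay or rise, because the rule asks for fewer libraries once 1 is left out. The cause of the other changes was not tested.

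No paired analysis was possible because the labels do not say which libraries share a preparation. By the study's design an input aliquot and pulled-down nuclei can share one, so libraries of different groups are not known to be independent. Each group has 2 libraries, so no p-value was run. Depth differs most between the Input libraries. Peak lists give no signal where no peak was called. The cushion and the PCM1 antibody were meant to select cardiomyocyte nuclei, and the share of endothelial nuclei left in each library was not measured here. Genotype and antibody cannot be told apart between Myc and PCM1.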

Other observations

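Some related genes differed at the main promoter, at equal peak number, and were chosen after their values were seen. Klf4, a flow-responsive factor of endothelium, ranked at 96.6 and 92.2 (Input), 94.4 and 93.9 (Myc), and 82.9 and 83.9 (PCM1), so PCM1 was lowest there. Prox1, which specifies lymphatic endothelium and is also active in cardiomyocytes, ranked at 61.7 and 56.1 (Input), 82.5 and 78.2 (Myc), and 57.6 and 53.1 (PCM1), with Myc highest. S1pr1, the endothelial receptor for sphingosine 1-phosphate, ranked at 97.0 and 96.2 (Input), 93.7 and 94.4 (Myc), and 96.7 and 97.4 (PCM1), and Myc was lowest. These genes thus differed in opposite directions, and none of the differences was tested.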
